A study of Homo sapiens with 12 samples.

Results

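The 37 genes described here encode the machinery that brings proteins into mitochondria, except for 4 that serve mitochondrial transcription. They were taken by name from a table of 23434 human genes, each row a gene identifier matched to its symbol, and all 37 had a row. The table holds raw read counts of EU-seq, in which RNA made during a short pulse of 5-ethynyl-uridine is captured and sequenced. A value thus follows RNA made in the pulse and still present at its end, rather than the whole store of finished mRNA. The cells were U2OS, a human osteosarcoma line, carrying MycER, a chimera of Myc and the estrogen receptor that 4-hydroxytamoxifen (OHT) switches on. There were 12 libraries in 4 groups of 3, named shNT, shNT with OHT, shCDK12 and shCDK12 with OHT.

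The cells of all groups carried MycER and were given doxycycline at 1 µg/mL to express a short hairpin RNA, against no target in shNT and against the transcriptional kinase CDK12 in shCDK12. In the groups named with OHT it was given at 300 nM for 40 h, and in the others it was not. The cells of each group were also held in mitosis with nocodazole at 100 ng/mL for 8 h, shaken off, released for 12 h and labelled with 0.5 mM 5-ethynyl-uridine for the last 2 h. Each preparation held 40 µg of human and 10 µg of mouse labelled RNA. The labels do not say whether the libraries of a group came from separate infections or cultures, so the p-values measure only the spread between these libraries, which may be technical, nor how many hairpin sequences stand behind a name.

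Nearly all mitochondrial proteins are encoded in the nucleus, made in the cytosol and drawn in through membrane complexes. The TOM complex of the outer membrane holds receptors (TOMM20, TOMM22, TOMM70) and a channel (TOMM40), SAM inserts barrel-shaped proteins into the outer membrane, and small TIM chaperones escort water-repelling proteins across the space between the membranes. In the inner membrane the TIMM23 translocase takes proteins with a cleavable presequence, pulled in by a motor around TIMM44 and trimmed by the peptidase of PMPCA and PMPCB, while the TIMM22 translocase takes metabolite carriers, and CHCHD4 with GFER forms disulfide bonds in proteins that then stay between the membranes. Myc is known for raising genes of mitochondrial biogenesis in many cells. TFAM, TFB1M, TFB2M and POLRMT are not import factors but proteins of mitochondrial transcription and rRNA maturation.

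Totals per library ran from 1928373 to 5227279 counts in shNT (median 4314380), 1251695 to 3666406 in shNT with OHT (3297982), 4142570 to 9400045 in the libraries labelled shCDK12 (5349901) and 5378438 to 10447836 in those labelled shCDK12 with OHT (7173020). Levels are given as CPM, counts relative to the library total after scaling over all 12 libraries, in the order of replicates 1, 2 and 3. The libraries of shNT with OHT were the least alike, with a Pearson r of log2 CPM across genes of 0.919, 0.935 and 0.954 among themselves, against 0.968 or more within each other group, the lowest 2 of these being the pairs with replicate 1. Replicate 2 of that group was the shallowest library of all. The mouse RNA has no rows in the table, so a rise or fall of transcription as a whole is not visible here, and all changes are relative to the other genes. In bulk samples like these, fewer cells that transcribe a gene and less RNA per cell cannot be told apart.

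Newly made RNA of CDK12, the gene the hairpin is aimed at, stood at 323, 289 and 300.2 CPM in shNT and at 293, 277 and 298 CPM in the libraries labelled shCDK12. These groups overlapped, and the difference did not pass the test (log2 fold change -0.08 ± 0.08, edgeR adjusted p = 0.45), so the labels are not borne out by this gene without OHT. With OHT it stood at 434, 356 and 400.5 CPM in shNT and at 215, 208 and 218 CPM in the libraries labelled shCDK12, where every library was lower (-0.88 ± 0.11, adjusted p = 0.00011). A hairpin acts on finished transcripts and EU-seq reads RNA made in the 2 h pulse, so these values do not measure silencing directly. The groups are called below by their labels. MYC, whose counts can hold reads of the transgene as well as of the gene, stood at 2221, 2044 and 2013 CPM in shNT, 2199, 1706 and 1997 CPM in shNT with OHT, 1214, 1035 and 1122 CPM where the label was shCDK12 and 2091, 2095 and 2000 CPM in those labelled shCDK12 with OHT. ODC1, a long-known Myc target that makes polyamines, rose with OHT in shNT from 499, 493 and 451 to 716, 841 and 894 CPM (0.76 ± 0.11, adjusted p = 0.00046) and fell with OHT in the libraries labelled shCDK12 from 1056, 1065 and 1109 to 542, 630.3 and 604 CPM (-0.86 ± 0.07, adjusted p = 6.0e-08).

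The line was checked against cell type markers. Of 10 mesenchymal markers 8 had a mean above 1 CPM, with FN1 (fibronectin) highest at 286 CPM and a summed level between 426 and 1641 CPM per library. Of 11 markers of epithelial, blood, endothelial, liver and neural crest cells 3 had a mean above 1 CPM, with CDH1 (E-cadherin) highest at 8.15 CPM, a summed level between 10.7 and 18.9 CPM per library, and no marker at 0 in every library. The mesenchymal markers moved between groups: 4 of 6 tested fell with OHT in shNT (8.29% of all genes did) and 4 of 6 rose with OHT in the libraries labelled shCDK12 (27.5%). The latter had 6 of 6 lower than shNT without OHT (32.4%) and 3 of 6 lower with it (21.6%). EPCAM, an epithelial surface protein singled out after its values were seen, was at 0.70, 1.76 and 0 CPM in shNT and at 2.51, 1.65 and 0.58 CPM when OHT was added. Under the label shCDK12 it was at 7.88, 9.55 and 6.66 CPM, and at 2.72, 2.85 and 2.36 CPM with OHT. It was tested with OHT in the libraries labelled shCDK12 only, where it fell (-1.60 ± 0.26, adjusted p = 6.1e-05). CDH1 had means of 9.57 CPM in shNT and 6.10 CPM under the label shCDK12. The part of these markers in the results below was not tested.

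Of the 37 genes, 35 had enough counts for at least 1 comparison, which asked for a mean above 32 normalized counts over the libraries compared. TOMM6, a small subunit of the TOM complex, had 0 counts in every library, which allows up to 2.40 CPM in the shallowest and 0.287 CPM in the deepest (3 counts, counting error only). PAM16, a motor subunit, had between 0 and 3 counts per library, and the readthrough gene CORO7-PAM16 that overlaps it had between 0 and 17. MTX1 (a SAM subunit), DNAJC19 (a J-protein of the motor) and TFB1M (an rRNA methyltransferase) were too low to be tested with OHT in shNT but passed elsewhere. Per kilobase of annotated exon, averaged over the 12 libraries, levels were highest for TIMM23 at 104, TOMM34 at 84.8, TOMM22 at 77.2 and TFAM at 65.5 CPM per kb, and lowest among the tested genes for SAMM50 at 3.11, TFB1M at 2.60, MTX1 at 2.52 and DNAJC19 at 1.46 CPM per kb. The SAM genes were all low (MTX2 was at 5.77 CPM per kb), and counts per library were as low as 11 for MTX1 and MTX2. The length used is the union of the exons of all annotated transcripts, so the order per kilobase also depends on the annotation. PMPCB, with a mean of 74.0 CPM and 16849 bases of exon, came to 4.39 CPM per kb. For 11 of the 37 genes another gene in the table overlaps, among them TOMM20, TIMM13, TIMM17B, TIMM9 and PMPCB, and TIMM23 has a near-identical copy, TIMM23B, so reads may be shared and these values are uncertain.

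**Figure D1:**
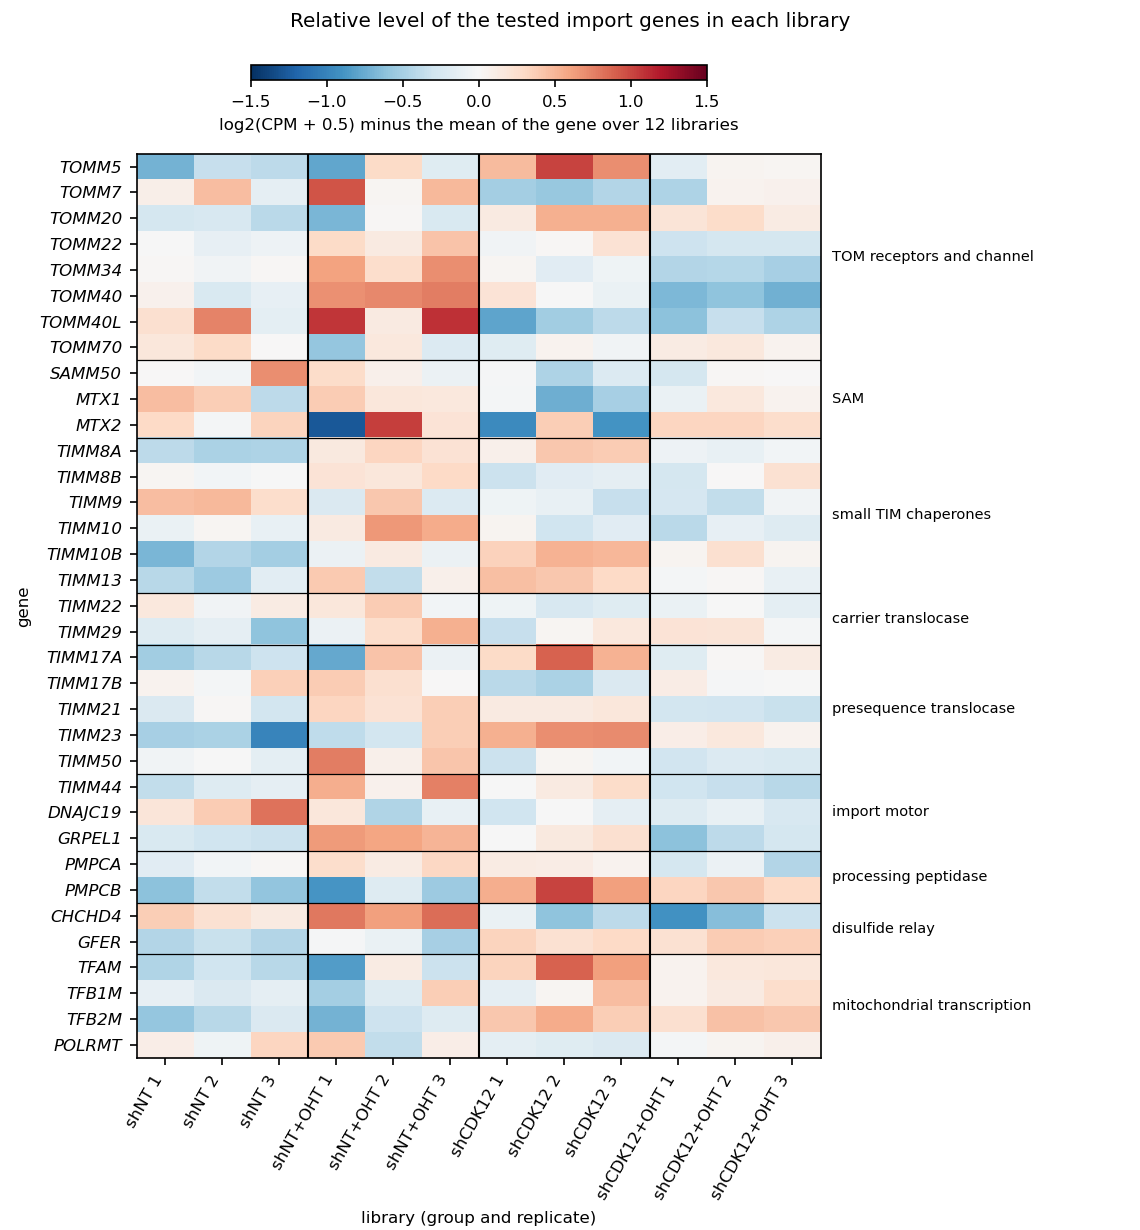
Each row is 1 of the 35 tested genes, grouped by role, and each column 1 of the 12 libraries. The colour is log2(CPM + 0.5) minus the mean of the gene over the libraries, on the scale printed above the map: TOMM40, GRPEL1 and TIMM44 are red in shNT with OHT and blue in the libraries labelled shCDK12 with OHT, while TOMM5, TIMM17A, PMPCB and TFAM are reddest in those labelled shCDK12, and replicate 1 of shNT with OHT departs from its group in TOMM5, TOMM70, MTX2 and TIMM17A.

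The first comparison asked what MycER activation did to these genes in cells with the non-targeting hairpin. TOMM40, the import channel, and GRPEL1, the nucleotide exchange factor of the import motor, rose 1.76-fold and 1.81-fold upon OHT, together with the motor anchor TIMM44, the small TIM chaperones TIMM8A and TIMM10B, the cytosolic co-chaperone TOMM34 and the translocase subunit TIMM21. Altogether 7 of the 32 genes tested passed an adjusted p-value under 0.05, all 7 higher and 0 lower, which is 21.9%, where 17.3% of all 10272 genes tested were called. Their median log2 fold change was 0.34, against -0.03 over all genes tested, and 26 of the 32 values were above 0. The median was 0.20 with the length trend removed and 0.15 with length and GC trends removed. By direction, 9.05% of all genes were called higher and 8.29% lower.

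TOMM40 was measured at 146, 119 and 128 CPM in shNT and 225, 231 and 238 CPM with OHT. The lowest library with OHT was well above the highest without it (log2 fold change 0.81 ± 0.13, adjusted p = 0.00088, from edgeR). TOMM34, which binds Hsp70 and Hsp90 in the cytosol, went from 164, 156 and 164 CPM to 247, 194 and 263 CPM, again with no overlap and with more spread among the libraries with OHT (0.54 ± 0.13, adjusted p = 0.013). TOMM22, the central receptor, was at 166, 153 and 158 CPM and at 204, 183 and 224 CPM with OHT. Its groups did not overlap, but the difference missed the threshold (0.36 ± 0.13, adjusted p = 0.063). The other receptors gave no call: TOMM20, which reads presequences, was at 133, 135 and 120.3 CPM and 99, 162 and 136 CPM with OHT (0.01 ± 0.17, adjusted p = 0.98), the OHT libraries lying on both sides of the others. TOMM70, the receptor for carrier proteins, was at 120.2, 130.2 and 107 CPM and 71.1, 119.6 and 92.8 CPM with OHT, overlapping, with a log2 fold change of -0.37 ± 0.18 (adjusted p = 0.16). The remaining tested TOM genes, TOMM5, TOMM7 and TOMM40L, overlapped between the groups and were not called.

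Promoter sequences are shown for TOMM40 and TOMM34, which rose with OHT in shNT, for TOMM20, which was not called, and for the TIM genes that hold the E-box of Myc. Of the 37 genes 34 matched a promoter in RefSeq (GRCh38.p14), a window from 250 bases before the start to 50 after it, read along the gene. The windows were searched on both strands for the E-box CACGTG, the preferred site of Myc with Max, which reads the same on both strands, for the related CACGCG, whose match on the other strand reads as its reverse complement, and for the NRF1 motif, the site of a regulator of nuclear genes of mitochondrial proteins. Matches of CACGCG on the 2 strands can overlap each other. CACGTG was in 3 of the 34 windows (8.82%), those of TOMM20, TIMM8A and TIMM10, against 8.77% of all 27305 genes with a window and 13% of the 8374 genes with a window that were tested with OHT in shNT. CACGCG was in 9 (26.5%), against 13.5% and 23.2%, and the NRF1 motif in 10 (29.4%), against 6.98% and 14.4%. The 250 bases before the start are printed for TOMM40 (chr19:44891004-44891253, plus strand), TOMM34 (chr20:44960398-44960647, minus strand) and TOMM20 (chr1:235128838-235129087, minus strand), and 30 bases around the E-box for TIMM8A (chrX:101348697-101348726, minus strand, bases 17 to 46 after the start) and TIMM10 (chr11:57530738-57530767, minus strand, across the start). Capitals mark the motif matches, and the CACGCG match of TOMM40 lies past its start and is not printed:
TOMM40: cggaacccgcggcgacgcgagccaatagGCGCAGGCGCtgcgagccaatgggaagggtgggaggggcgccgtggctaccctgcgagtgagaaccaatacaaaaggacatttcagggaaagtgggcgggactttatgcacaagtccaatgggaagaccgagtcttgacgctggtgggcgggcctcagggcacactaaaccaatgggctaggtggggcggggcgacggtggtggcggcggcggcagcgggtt
TOMM34: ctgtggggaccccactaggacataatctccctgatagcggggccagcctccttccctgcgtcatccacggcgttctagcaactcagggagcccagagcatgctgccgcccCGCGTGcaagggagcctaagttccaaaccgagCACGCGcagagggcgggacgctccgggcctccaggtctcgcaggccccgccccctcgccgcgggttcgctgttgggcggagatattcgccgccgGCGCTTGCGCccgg
TOMM20: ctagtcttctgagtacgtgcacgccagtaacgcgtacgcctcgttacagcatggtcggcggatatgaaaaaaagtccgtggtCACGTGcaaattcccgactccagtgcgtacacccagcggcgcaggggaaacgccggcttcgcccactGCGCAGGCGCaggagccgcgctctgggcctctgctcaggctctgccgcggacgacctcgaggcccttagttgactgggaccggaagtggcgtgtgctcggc
TIMM8A: ccgtcgcggagaCACGTGaaggtcggtgcg
TIMM10: ccggaagtaaccCACGTGcttccgctggag
Of the genes called with OHT in shNT that had a window, TOMM40 and TOMM34 held the NRF1 motif and CACGCG, TIMM8A held the E-box, and TIMM44, TIMM10B and TIMM21 held none of these. Among genes tested there and not called, TOMM20 held the NRF1 motif and the E-box, TIMM10 the E-box, and CHCHD4 the NRF1 motif and CACGCG. TOMM7, TIMM29, TFAM and POLRMT held the NRF1 motif, and SAMM50, TIMM13, TIMM50 and PMPCA held CACGCG. The remaining matches were in TOMM6, PAM16 and TFB1M, which were not tested there. A match is a run of letters and no evidence of binding, which was not measured.

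The small TIM chaperones, which form rings between the membranes, had 2 of 6 genes called. TIMM8A, the gene of deafness-dystonia syndrome, went from 44.5, 42.0 and 42.1 CPM in shNT to 64.5, 73.4 and 68.1 CPM with OHT, with tight groups far apart (0.67 ± 0.17, adjusted p = 0.014). TIMM10B, which docks the chaperones at the TIMM22 translocase, went from 62.3, 74.0 and 70.2 CPM to 94.3, 110.5 and 94.5 CPM, without overlap (0.52 ± 0.15, adjusted p = 0.03). TIMM13, the partner of TIMM8A, was at 29.5, 26.9 and 35.6 CPM and 52.3, 30.5 and 41.8 CPM with OHT, where replicate 2 fell among the shNT libraries (0.48 ± 0.23, adjusted p = 0.16). TIMM8B, TIMM9 and TIMM10 were not called, nor were TIMM22 and TIMM29 of the carrier translocase.

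In the presequence translocase 1 of 5 genes was called. TIMM21, which links the complex to TOM, went from 85.0, 100.5 and 81.7 CPM to 124, 115 and 128 CPM (0.45 ± 0.14, adjusted p = 0.039), the groups standing apart. The receptor TIMM50, at 56.5, 58.2 and 52.6 CPM and 99.6, 61.9 and 78.3 CPM with OHT, and the channel TIMM23, at 82.7, 83.7 and 58.6 CPM and 89.6, 96.5 and 151 CPM with OHT, were both higher in every OHT library but varied widely among them. Their log2 fold changes were 0.54 ± 0.18 (adjusted p = 0.056) and 0.58 ± 0.20 (adjusted p = 0.059), and neither passed. TIMM17A, a channel subunit, was at 87.8, 95.0 and 102 CPM and 74.2, 169.9 and 119 CPM with OHT, where replicate 1 was below all shNT libraries and replicate 2 far above them (0.32 ± 0.22, adjusted p = 0.35). Its paralog TIMM17B was at 20.9, 19.7 and 26.1 CPM and 26.3, 23.9 and 20.3 CPM with OHT, overlapping (0.09 ± 0.25, adjusted p = 0.83).

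Both genes of the import motor that could be tested rose. GRPEL1 went from 111, 106 and 104 CPM in shNT to 202, 196 and 185 CPM with OHT, with the groups far apart (0.86 ± 0.13, adjusted p = 0.00052). TIMM44, which tethers the Hsp70 of the motor to the channel, went from 25.5, 29.1 and 30.1 CPM to 48.6, 34.6 and 56.5 CPM (0.76 ± 0.22, adjusted p = 0.026), without overlap but with replicate 2 of the OHT libraries close to shNT. DNAJC19 stood at 7.96, 9.17 and 12.5 CPM in shNT and 7.83, 4.95 and 6.38 CPM with OHT and was not tested.

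No gene of the processing peptidase, the disulfide relay, SAM or mitochondrial transcription was called with OHT in shNT. PMPCA, the subunit that binds the presequence, was at 91.1, 99.3 and 104 CPM and 123, 112 and 127 CPM with OHT (0.30 ± 0.14, adjusted p = 0.15), the groups not overlapping. PMPCB, the catalytic subunit, was at 44.5, 52.7 and 45.1 CPM and 36.7, 59.4 and 46.4 CPM, overlapping, with a log2 fold change of -0.04 ± 0.20 (adjusted p = 0.92). CHCHD4, the oxidoreductase of the relay, was at 41.0, 36.9 and 34.6 CPM and 54.8, 48.7 and 56.5 CPM, higher in every OHT library (0.51 ± 0.18, adjusted p = 0.065), and GFER, which reoxidizes it, overlapped at 73.3, 78.8 and 73.2 CPM and 98.4, 92.4 and 70.2 CPM (0.20 ± 0.17, adjusted p = 0.43). SAMM50, the SAM channel, was at 19.7, 18.9 and 32.1 CPM and 23.8, 20.6 and 18.3 CPM (-0.14 ± 0.28, adjusted p = 0.77). TFAM, which packages mitochondrial DNA, was at 239, 267 and 246 CPM and 183, 359 and 262 CPM (0.07 ± 0.18, adjusted p = 0.81), where replicate 1 of the OHT libraries was lowest and replicate 2 highest of the 6. POLRMT, the mitochondrial RNA polymerase, was at 37.7, 33.8 and 44.1 CPM and 46.4, 27.2 and 37.7 CPM (-0.01 ± 0.22, adjusted p = 0.98).

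**Figure D2:**
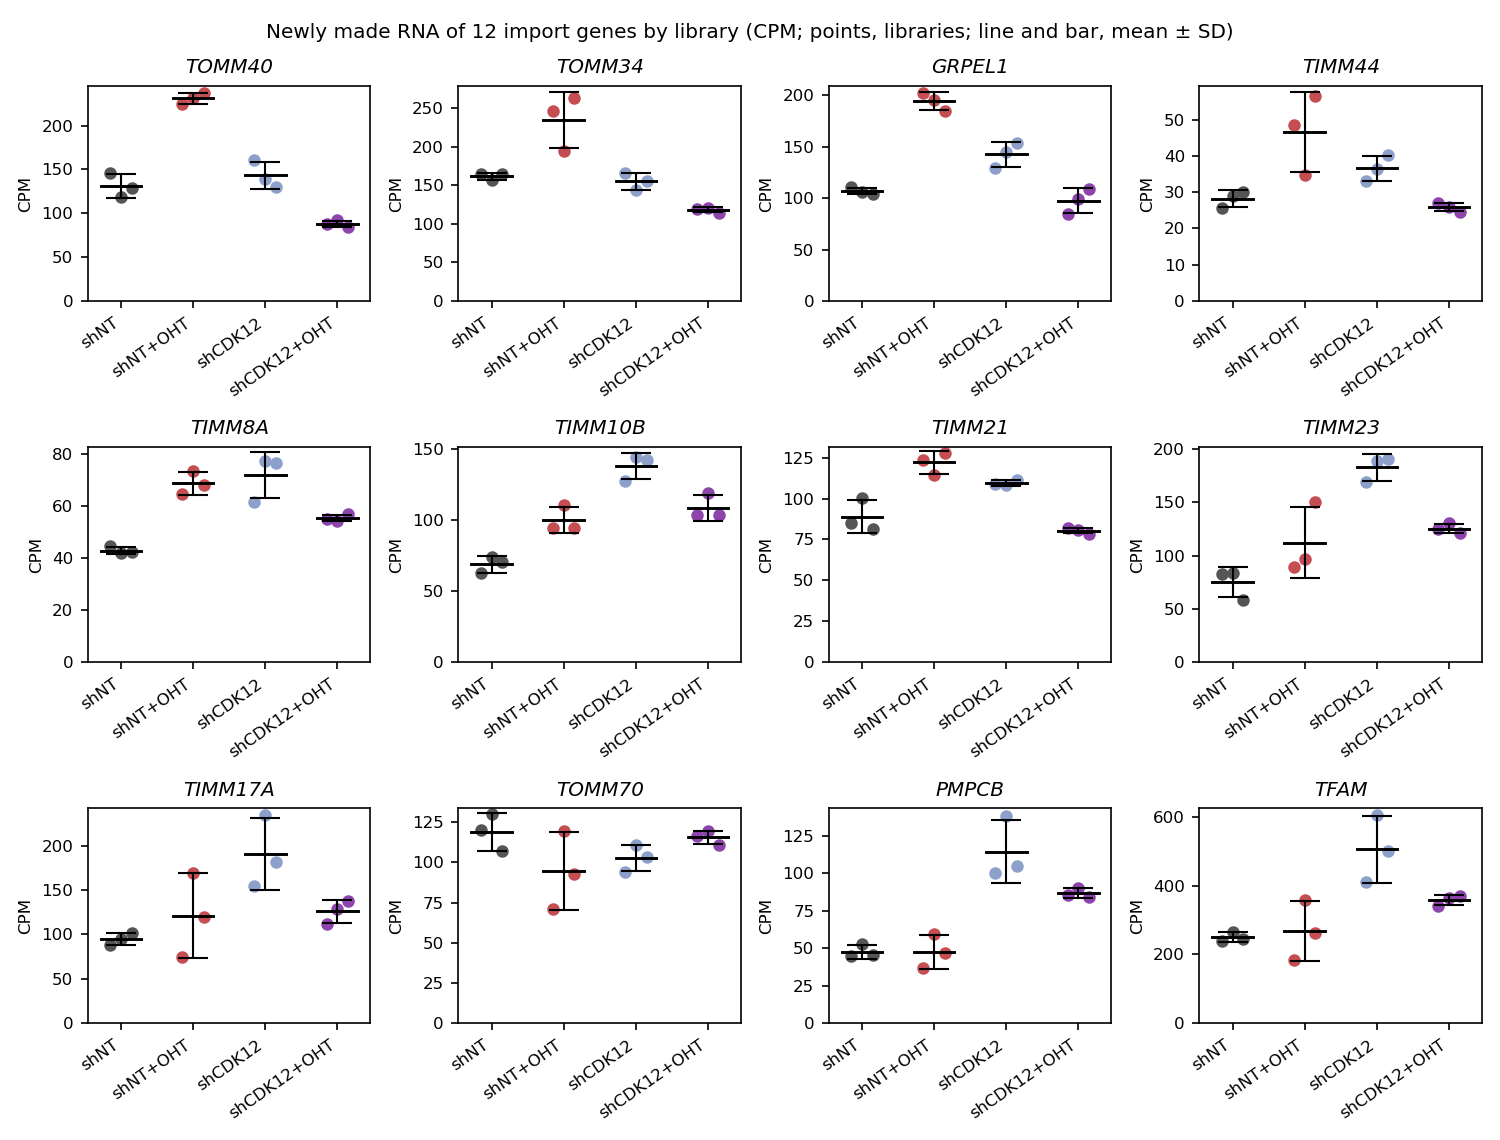
CPM (vertical axes, from 0) of 12 import genes in each library (points) of the 4 groups, with the mean (line) and SD (bars, n = 3). The 3 shNT libraries with OHT stand highest of all groups for TOMM40 (225 to 238 CPM) and GRPEL1 (185 to 202 CPM), and the libraries labelled shCDK12 stand highest for TIMM23, PMPCB and TFAM.

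How many genes were called depended on single libraries. Without replicate 1 of shNT 2 of 32 tested passed (6.25%, and 7.46% of all genes), without its replicate 2, 2 of 31 (6.45%, and 6.77%), and without its replicate 3, 3 of 34 (8.82%, and 7.83%), all higher. In these fits the share of import genes was close to that of the whole table, and so it was without replicate 3 of shNT with OHT, with 3 of 32 (9.38%, and 10.7%). Without replicate 1 of that group 14 of 33 passed (42.4%, and 24.5%), all higher, and without its replicate 2, 13 higher and 2 lower of 34 (44.1%, and 22.3%). TOMM40 (adjusted p from 8.8e-06 to 0.015) and GRPEL1 (8.9e-06 to 0.0093) passed whichever library was left out. TOMM34 was lost without replicates 1 or 2 of shNT or replicate 3 of shNT with OHT (0.0014 to 0.094), TIMM8A without any 1 shNT library (0.0026 to 0.094), and TIMM10B, TIMM21 and TIMM44 without any 1 shNT library or replicate 3 of shNT with OHT, with adjusted p up to 0.16, 0.17 and 0.13. With libraries thinned to equal depth TIMM8A, TIMM21 and TIMM44 were lost, with the trend on gene length removed TIMM8A, TIMM10B and TIMM21, with length and GC trends removed TIMM10B, and without the filter on low counts TIMM21. DESeq2 and upper-quartile normalization each called 10 of 32, all higher (31.2%, against 18.1% and 17.4% of all genes).

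The import genes are short by their median, although TFB1M, MTX2, PMPCB, SAMM50, TOMM70 and TIMM23 span more than the median of all genes. The 32 tested spanned a median of 12615 bases in RefSeq against 30547 for all genes with a span, and their log2 fold changes with OHT in shNT fell with the logarithm of the span (Pearson r = -0.44 across the 32 genes, and -0.29 across 10147 genes). These points come from the same libraries, and genes are not independent replicates. For the 4 longest tested genes, TOMM70, SAMM50, PMPCB and MTX2, no log2 fold change was above 0, while the 4 shortest, TIMM29, TIMM8B, TIMM13 and TIMM10, were at 0.54, 0.24, 0.48 and 0.51 without passing. With the length trend removed 4 of the 32 were called (12.5%, and 13.5% of all genes), and with length and GC trends removed 7 (21.9%, and 21.0%).

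**Figure D3:**
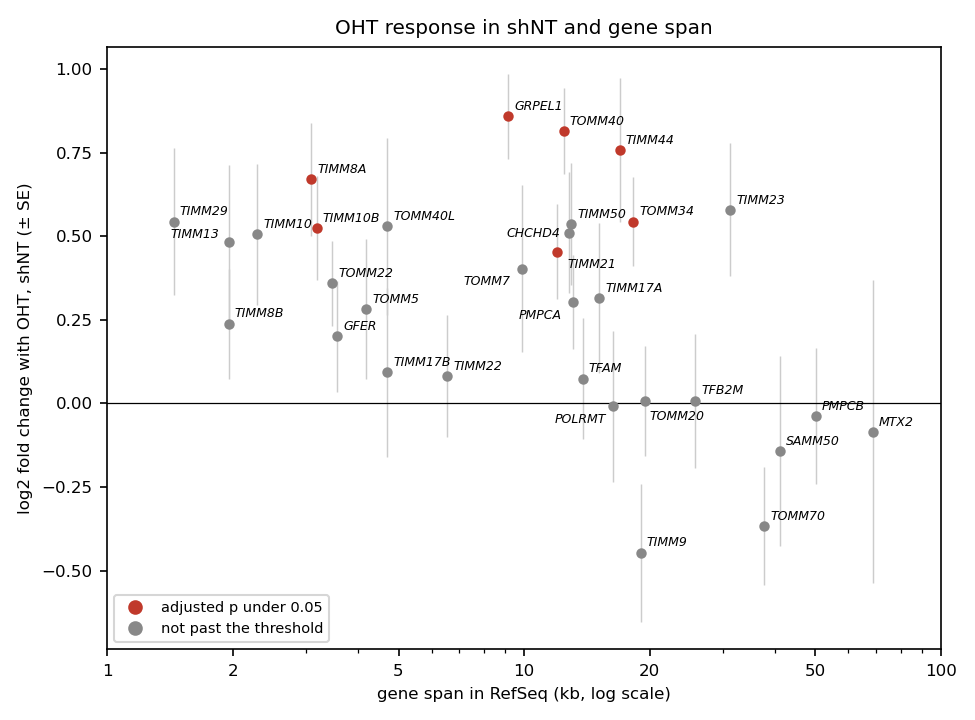
Log2 fold change with OHT in shNT (vertical axis, ± SE) against the RefSeq span in kb (horizontal, log scale) for the 32 tested import genes. Red points passed an adjusted p-value under 0.05; all 7 span between 3082 and 18268 bases, and the 4 longest genes are below 0.

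The same question was asked in the cells with the hairpin against CDK12. There OHT went with lower levels of the TOM small subunit TOMM5 (0.583-fold of the level without OHT), the channel TOMM40 (0.618-fold), the presequence translocase subunits TIMM17A and TIMM23, the motor genes GRPEL1 and TIMM44, both peptidase subunits and TFAM. Of 35 genes tested 15 were lower and 2 higher, where 48.9% of all 12519 genes tested were called, 27.5% higher and 21.5% lower. The median log2 fold change of the 35 genes was -0.15, against 0.05 over all genes. At equal depth, where 25 genes could be tested, it was -0.41, against -0.0076 over all genes. With DESeq2, and with upper-quartile normalization, the split was 16 lower and 0 higher.

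TOMM5 fell from 224, 326 and 262 CPM in the libraries labelled shCDK12 to 144, 166 and 164 CPM with OHT, with no overlap (-0.78 ± 0.11, adjusted p = 1.4e-05). TOMM40 fell from 160.3, 139 and 130.1 to 87.6, 91.8 and 84.7 CPM, and these OHT libraries were the lowest of all 12 (-0.70 ± 0.09, adjusted p = 8.2e-06). TOMM34 fell from 166, 144 and 155 to 119.5, 120.2 and 115 CPM (-0.39 ± 0.08, adjusted p = 0.00094). TOMM22 fell from 161, 168 and 194 to 134, 139 and 139 CPM, also without overlap (-0.35 ± 0.09, adjusted p = 0.0027). TOMM7, which steadies the complex, was called higher, from 16.9, 16.3 and 17.8 to 17.5, 25.2 and 25.4 CPM, although the groups overlapped (0.42 ± 0.16, adjusted p = 0.039), and the call was lost with DESeq2, with upper-quartile normalization and without replicate 2 or 3 of either group. TOMM70 did not pass, at 94.3, 111 and 103 and 116, 119 and 111 CPM (0.16 ± 0.09, adjusted p = 0.13).

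Among the small TIM chaperones TIMM8A fell from 61.6, 77.4 and 76.4 to 55.1, 54.2 and 56.8 CPM, TIMM10B from 127, 144 and 142 to 104, 119 and 103 CPM and TIMM13 from 54.4, 52.7 and 49.0 to 38.7, 40.2 and 36.6 CPM. In each of these every OHT library was below every library without it, and the log2 fold changes were -0.39 ± 0.10, -0.35 ± 0.09 and -0.43 ± 0.11 (adjusted p = 0.0053, 0.0038 and 0.0027). TIMM8A was not called at equal depth. In the presequence translocase TIMM23 fell from 169, 189 and 191 to 125, 130.3 and 121 CPM (-0.55 ± 0.08, adjusted p = 3.0e-05), TIMM17A from 154, 235 and 182 to 112, 128 and 138 CPM (-0.61 ± 0.12, adjusted p = 0.00043) and TIMM21 from 109, 109 and 112 to 81.9, 80.9 and 78.5 CPM (-0.45 ± 0.08, adjusted p = 0.0003), none overlapping. TIMM50 overlapped, at 46.5, 59.6 and 56.6 and 47.8, 50.8 and 49.7 CPM (-0.15 ± 0.11, adjusted p = 0.29). TIMM17B went the other way from TIMM17A, from 15.1, 14.4 and 17.2 to 21.9, 19.9 and 20.1 CPM (0.41 ± 0.15, adjusted p = 0.028), a call that was lost with DESeq2, with upper-quartile normalization, and without replicate 2 of the libraries labelled shCDK12 or any 1 of those with OHT.

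Of the 3 motor genes tested 2 fell. GRPEL1 went from 129, 144 and 154 to 84.5, 98.9 and 108 CPM (-0.55 ± 0.10, adjusted p = 0.00017) and TIMM44 from 33.1, 36.5 and 40.2 to 26.9, 26.0 and 24.7 CPM (-0.50 ± 0.13, adjusted p = 0.0031), while DNAJC19 overlapped (-0.06 ± 0.23, adjusted p = 0.84). Both subunits of the peptidase were lower in every OHT library: PMPCA went from 112, 111 and 106 to 85.4, 96.5 and 75.3 CPM (-0.35 ± 0.10, adjusted p = 0.0061) and PMPCB from 99.8, 138 and 105 to 85.4, 90.3 and 83.8 CPM (-0.41 ± 0.11, adjusted p = 0.0045). TFAM, the most abundant of the 37 in CPM, fell from 413, 606 and 501 to 341, 366 and 370.0 CPM (-0.50 ± 0.10, adjusted p = 0.00061). CHCHD4, at 29.4, 20.6 and 23.9 and 16.6, 20.1 and 25.0 CPM, overlapped and was not called (-0.25 ± 0.17, adjusted p = 0.24), and GFER, the SAM genes, TIMM22, TIMM29, TFB1M, TFB2M and POLRMT were not called either, nor were the remaining members tested.

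All 7 genes that rose with OHT in shNT were among the 15 that were lower with OHT in the libraries labelled shCDK12, which is 7 of 7 of the first list and 7 of 15 of the second. Over all genes 690 of the 930 that were higher in shNT (74.2%) were lower in the libraries labelled shCDK12, out of 2686 lower there (25.7%). The 2 comparisons share no library. Of the 32 genes tested in both, 23 (71.9%) had log2 fold changes of opposite sign, as had 7277 of 10233 genes overall (71.1%), so the opposite signs are as frequent in the whole table as in the import genes.

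**Figure D4:**
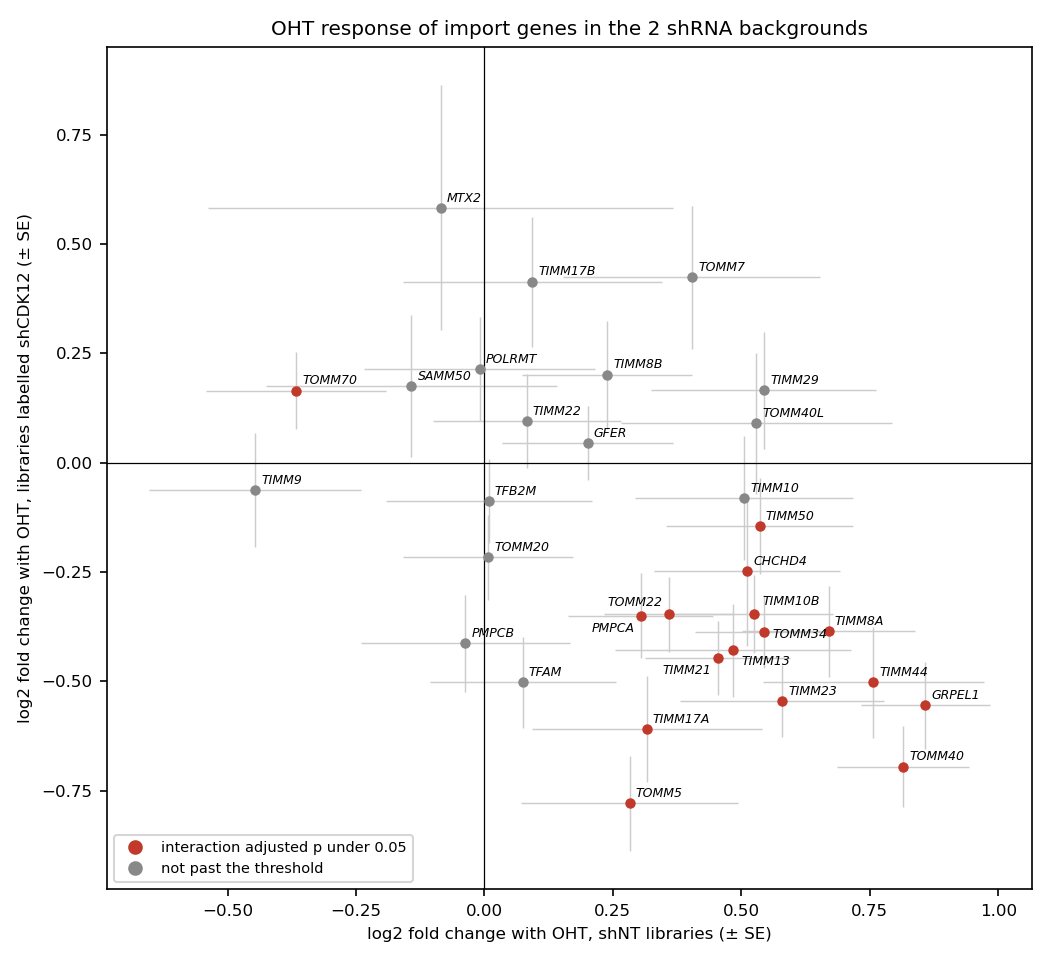
Log2 fold change with OHT in shNT (horizontal axis, ± SE) against that in the libraries labelled shCDK12 (vertical axis, ± SE) for the 32 genes tested in both. Red points passed an adjusted p-value under 0.05 in the test of the difference; 15 of the 16 red points lie to the right of 0 and below it, and TOMM70 lies at the upper left.

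The difference between the OHT responses was tested itself, as the interaction of OHT and hairpin over all 12 libraries. The response of TOMM40 was lower in the libraries labelled shCDK12 than in shNT by the widest margin among the import genes, followed by GRPEL1, TIMM44 and TIMM23. Of 35 genes tested 15 were lower and 1 higher, where 45.2% of all 11699 genes tested were called, 25.6% higher and 19.6% lower. The median over the 35 genes was -0.44, against 0.10 over all genes. With upper-quartile normalization the median of all genes shifted to -0.02 and that of the import genes to -0.56, with 17 lower and 0 higher. At equal depth, where 28 could be tested, the medians were -0.02 and -0.78. The median of the import genes was -0.30 with the length trend removed and -0.32 with length and GC trends removed.

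By role, 4 of 8 TOM genes were lower, TOMM40 at -1.52 ± 0.16 (adjusted p = 2.4e-07), TOMM5 at -1.05 ± 0.26 (0.0025), TOMM34 at -0.94 ± 0.16 (6.2e-05) and TOMM22 at -0.71 ± 0.15 (0.00059). TOMM70 was the 1 gene higher, at 0.55 ± 0.20 (adjusted p = 0.032), and this call was lost in 7 of the 12 fits that left out 1 library. It was also lost with upper-quartile normalization and at equal depth. The small TIM chaperones TIMM8A at -1.05 ± 0.18 (9.9e-05), TIMM13 at -0.94 ± 0.23 (0.0026) and TIMM10B at -0.87 ± 0.17 (0.0003) were lower, with TIMM13 lost when the length trend was removed. In the presequence translocase 4 of 5 were lower, which were TIMM23 at -1.12 ± 0.23 (0.00044), TIMM17A at -0.91 ± 0.28 (0.012), TIMM21 at -0.90 ± 0.16 (0.00011) and TIMM50 at -0.68 ± 0.21 (0.012, lost at equal depth). GRPEL1 at -1.41 ± 0.16 (adjusted p = 7.5e-07) and TIMM44 at -1.28 ± 0.24 (0.00021) of the motor, PMPCA at -0.66 ± 0.16 (0.0027) and CHCHD4 at -0.77 ± 0.25 (0.018) completed the list, CHCHD4 being lost without replicate 1 of either group labelled shCDK12. No SAM, carrier translocase or mitochondrial transcription gene passed.

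Without OHT, the libraries labelled shCDK12 differed from shNT in 20 of 35 import genes, 14 higher and 6 lower, where 62.0% of all 11718 genes tested were called, 29.6% higher and 32.4% lower. The catalytic peptidase subunit PMPCB, the channel TIMM23 and the TOM subunit TOMM5 showed the widest rises, followed by TIMM17A, TFAM and TIMM10B. The median log2 fold change of the 35 was 0.13, against -0.03 over all genes, but it was 0.02 with the length trend removed, 0.22 with upper-quartile normalization and 0.24 at equal depth.

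PMPCB stood at 44.5, 52.7 and 45.1 CPM in shNT and 99.8, 138 and 105 CPM in the libraries labelled shCDK12 (2.41-fold, log2 1.27 ± 0.13, adjusted p = 9.9e-09). TIMM23 was 2.39-fold higher (1.26 ± 0.11, adjusted p = 4.6e-10) and TOMM5 2.35-fold higher (1.23 ± 0.12, adjusted p = 2.2e-09), with every library above every shNT library in all of these. TIMM17A (2.03-fold), TFAM (2.02-fold), TIMM10B (2.01-fold), TFB2M, a mitochondrial transcription factor (1.83-fold), TIMM13 (1.73-fold), TIMM8A (1.68-fold), TOMM20 (1.63-fold) and GFER (1.61-fold) were higher as well, with adjusted p-values from 7.1e-09 to 7.2e-05. GRPEL1 (1.33-fold), TIMM44 (1.31-fold) and TIMM21 (1.22-fold) showed smaller rises, and TIMM44 and TIMM21 lost their call in 4 and 3 of the 6 fits that left out 1 library. Both were also lost at equal depth, and TIMM44 without the filter on low counts and with all libraries in 1 fit.

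The 6 lower genes were TOMM40L, a paralog of TOMM40 (27.6, 39.2 and 21.1 CPM in shNT and 13.2, 16.1 and 17.6 CPM in the libraries labelled shCDK12, -0.94 ± 0.21, adjusted p = 0.00033), TOMM7 (-0.71 ± 0.19, adjusted p = 0.0023), CHCHD4 (-0.64 ± 0.17, 0.0023), TIMM9, the chaperone that pairs with TIMM10 (-0.59 ± 0.14, 0.00086), MTX1 (-0.73 ± 0.31, 0.042) and TIMM17B (-0.49 ± 0.20, 0.04). MTX1 overlapped between the groups, and it and TIMM17B each lost their call in 4 of the 6 fits that left out 1 library, with DESeq2, with upper-quartile normalization and without the filter on low counts. TOMM7 was lost without replicate 2 of shNT, and CHCHD4 at equal depth.

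With OHT the libraries labelled shCDK12 stood below those of shNT in more import genes than above. TOMM40 at 0.386-fold of the shNT level, CHCHD4 at 0.385-fold and TOMM40L at 0.391-fold were the lowest. Of 35 genes tested 12 were lower and 4 higher, where 45.4% of all 11668 genes were called, 23.8% higher and 21.6% lower. The median was -0.17, against 0.05 over all genes. It was -0.25 at equal depth, with 29 genes tested, but it became 0.02 with the length trend removed and 0.03 with the length and GC trends removed, and the split became 9 lower and 5 higher or 9 lower and 6 higher.

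CHCHD4 was at 54.8, 48.7 and 56.5 CPM in shNT with OHT and at 16.6, 20.1 and 25.0 CPM in the libraries labelled shCDK12 with OHT, with no overlap (-1.38 ± 0.19, adjusted p = 0.00023). TOMM40 gave -1.37 ± 0.11 (adjusted p = 9.3e-06) and TOMM40L -1.35 ± 0.24 (adjusted p = 0.00097). GRPEL1 (-0.98 ± 0.13), TOMM34 (-0.98 ± 0.13), TIMM44 (-0.87 ± 0.19), TIMM50 (-0.70 ± 0.16), TIMM21 (-0.59 ± 0.12) and TOMM22 (-0.56 ± 0.11) followed, with adjusted p-values from 0.00017 to 0.0054, and every library labelled shCDK12 with OHT was below every shNT library with OHT for each. TIMM10 (-0.67 ± 0.19, adjusted p = 0.015), PMPCA (-0.48 ± 0.13, 0.013) and TOMM7 (-0.67 ± 0.24, 0.043) were lower too, TOMM7 with overlapping groups, but lost the call with the length trend removed and, for TIMM10 and PMPCA, without replicate 1 or 3 of the libraries labelled shCDK12 with OHT. TOMM7 was called when replicate 2 of shNT with OHT was left out and in no other fit without 1 library, and was lost at equal depth.

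Higher were PMPCB, from 36.7, 59.4 and 46.4 CPM in shNT with OHT to 85.4, 90.3 and 83.8 CPM (0.93 ± 0.17, adjusted p = 0.0011), TFB2M (0.79 ± 0.16, 0.0022), GFER (0.55 ± 0.15, 0.012) and TOMM20 (0.51 ± 0.16, 0.023). Every library labelled shCDK12 with OHT was above every shNT library with OHT for each of these. The calls of GFER and TOMM20 were lost in 3 and 4 of the 6 fits that left out 1 library. These 4 were also higher without OHT (4 of the 14 higher there, and 4 of the 4 here), in libraries that the comparisons do not share. In turn TOMM7, TOMM40L and CHCHD4 were lower in both (3 of 6, and 3 of 12). Over all genes 1227 were higher in both, 35.4% of those higher without OHT and 44.2% of those higher with it. Lower in both were 1255, which is 33.0% and 49.8%.

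**Figure D5:**
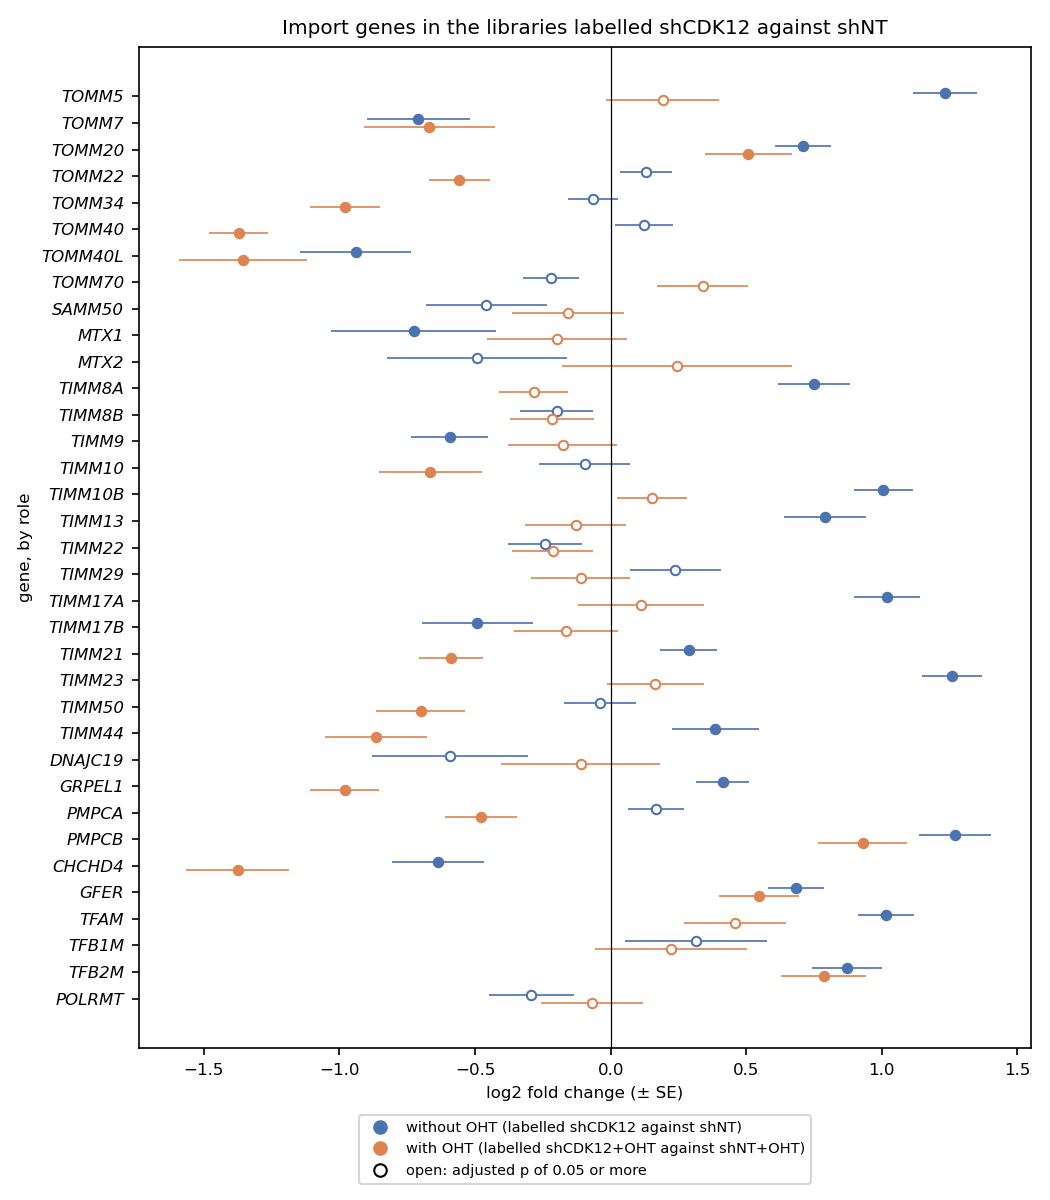
Log2 fold change (horizontal axis, ± SE) of the libraries labelled shCDK12 against shNT for the 35 tested import genes, without OHT (blue) and with OHT (orange), with filled points past an adjusted p-value under 0.05. TIMM23, TOMM5, TIMM17A and TIMM10B are far right of 0 without OHT and near 0 with it, and TOMM40, GRPEL1 and TIMM44 are at or right of 0 without OHT and left of it with OHT.

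Other genes of mitochondrial biogenesis were read in the same fits. With OHT in shNT 8 of 39 genes tested from 3 further lists were higher and 0 lower, where 9.05% and 8.29% of all genes were, with a median log2 fold change of 0.23. Among 14 other import and processing factors tested 1 was higher, HSPD1, the matrix chaperonin (0.41 ± 0.13, adjusted p = 0.038). GRPEL2, the paralog of GRPEL1 (0.43 ± 0.15, adjusted p = 0.063), HSPA9, the Hsp70 of the motor (0.23 ± 0.12, 0.19), and ROMO1, a small inner membrane protein (0.76 ± 0.31, 0.105), did not pass. Among 15 genes of mitochondrial DNA upkeep and expression TOP1MT, the mitochondrial topoisomerase (1.09 ± 0.21, adjusted p = 0.003), POLG2, a subunit of the mitochondrial DNA polymerase (0.86 ± 0.24, 0.024), and TWNK, the helicase (0.50 ± 0.14, 0.022), were higher, and TRMT10C, a tRNA processing factor, did not pass (0.53 ± 0.19, 0.067). HSPD1 and POLG2 lost their calls without any 1 shNT library, and TWNK without any 1 shNT library or replicate 3 of shNT with OHT. With the length trend removed HSPD1 and TWNK were lost, and with length and GC trends removed TWNK.

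Of 10 regulators tested 4 were higher with OHT in shNT: PPARGC1B (0.92 ± 0.21, adjusted p = 0.0076) and PPRC1 (0.69 ± 0.14, 0.0042), coactivators of the PGC-1 family, and ATF4 (0.66 ± 0.10, 0.00063) and DDIT3 (0.99 ± 0.20, 0.0049), which are known as transcription factors of the stress response. With OHT in the libraries labelled shCDK12, 19 of 42 genes of these lists were lower and 3 higher, where 21.5% and 27.5% of all genes were. In the test of the difference, 16 of 41 were lower and 2 higher, where 19.6% and 25.6% of all genes were. Among the lower were PPARGC1B (-2.18 ± 0.22, adjusted p = 2.1e-07), POLG2 (-1.69 ± 0.26, 2.8e-05), TOP1MT (-1.42 ± 0.22, 3.5e-05), LONP1, the matrix protease (-1.10 ± 0.30, 0.0048), and HSPD1 (-0.91 ± 0.15, 6.8e-05). Without OHT 17 of 41 were higher and 7 lower in the libraries labelled shCDK12 than in shNT (29.6% and 32.4% of all genes), and with OHT 4 of 40 were higher and 12 lower (23.8% and 21.6%).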

How the data were processed

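The authors deposited 1 table of raw counts per gene for 12 libraries, without normalization. The submitters' processing notes name STAR 2.7.5c, featureCounts 1.4.5-p1 and hg19. The library kit keeps strand, but whether the counting used it, and the gene annotation, are not given in the sources used here. Symbols, spans and promoters came from RefSeq (GRCh38.p14, 23284 of 23434 rows matched by identifier), exon lengths (the union of exons) and GC content from GENCODE, and no coordinates of the counts are printed.

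Counts were fitted with edgeR 4.0.16 in R 4.3.3 (TMM factors, quasi-likelihood F test, Benjamini-Hochberg adjustment over all genes tested, adjusted p-value under 0.05). Each comparison used its 6 libraries and the interaction all 12, keeping genes whose mean normalized count passed 32. SEs are the log2 fold change divided by the square root of F. The scripts were tested on simulated data, with 200 changes of 2-fold up or down per comparison. Recovered were 152 with OHT in shNT and 185 with OHT in the libraries labelled shCDK12. Between the hairpins 182 were recovered without OHT and 158 with it, and 130 in the interaction. False calls numbered 4 to 10. The comparisons thus differ in how many changes of this size they find. Alternatives were DESeq2 1.42.0, upper-quartile factors, no filter on low counts, filterByExpr, the replicate number as a block, all libraries in 1 fit, thinning to 1251695 counts, removing the loess trend on gene length, and leaving out each library. Removing length and GC trends together was chosen after seeing the data. The 37 genes, the lists and the tests were chosen with earlier results of these data known. Groups came from the labels. Genes given in full were those called with OHT in shNT or in the interaction, at most 3 per role by adjusted p, with 14 fixed examples, up to 4 per other list, and CDK12, MYC and ODC1. Genes named beyond these in the other comparisons are the members called there.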

Additional observations from a re-analysis of the deposited data

Results flagged for a closer look

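The OHT response differed between the hairpins, by the interaction term of the edgeR fit over all 12 libraries, in 16 of the 37 import genes. As the log2 response in the libraries labelled shCDK12 minus that in shNT, the differences were -1.52 for TOMM40, -1.41 for GRPEL1, -1.28 for TIMM44, -1.12 for TIMM23, -1.05 for TIMM8A, -1.05 for TOMM5, -0.94 for TIMM13, -0.94 for TOMM34, -0.91 for TIMM17A, -0.90 for TIMM21, -0.87 for TIMM10B, -0.77 for CHCHD4, -0.71 for TOMM22, -0.68 for TIMM50, -0.66 for PMPCA and 0.55 for TOMM70.

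The same test gave -0.83 for CDK12, 0.96 for MYC and -1.62 for ODC1. In the other lists it gave -2.18 for PPARGC1B, -1.69 for POLG2, -1.42 for TOP1MT, -1.34 for DDIT3, -1.23 for PPRC1, -1.10 for LONP1, -1.03 for ATF4, -0.92 for TWNK, -0.91 for HSPD1, -0.83 for GRPEL2, -0.66 for MGME1, a nuclease of mitochondrial DNA, and -0.46 for HSPA9. Of all genes tested 45.2% passed this test, so a difference of this kind is common in the table. Groups of 3 are too small for a test of single outlying libraries.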

How the results depend on the processing

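The count of import genes called with OHT in shNT was 4 with the length trend removed (12.5%, and 13.5% of all genes), 14 with all libraries in 1 fit (40.0%, and 27.8%), and between 2 and 15 when 1 library was left out (6.25% to 44.1%, and 6.77% to 24.5%), against 7 (21.9%, and 17.3%). Leaving out 1 library also lowers the number of samples. The median of the import genes there was 0.20 with the length trend removed and 0.15 with length and GC trends removed. All genes called there numbered 3256 of 11699 with all libraries in 1 fit and between 670 and 2523 without 1 library. Thinned to the smallest library, which leaves fewer genes to test, the calls over all genes were 3199 with OHT in the libraries labelled shCDK12, 4465 for those against shNT, 3135 for the same with OHT and 3215 for the interaction, and the medians of the import genes became -0.41, 0.24, -0.25 and -0.78. Upper-quartile normalization moved the median without OHT to 0.22 and that of the interaction to -0.56. Removing the length trend moved them to 0.018 and -0.30, and removing length and GC trends moved the interaction median to -0.32. For the hairpins compared with OHT, the import gene median turned to 0.019 and 0.025 under these, and without 1 library it lay between -0.30 and -0.14, with 3520 to 6238 genes called. The interaction median lay between -0.62 and -0.34 without 1 library. The cause of these shifts was not tested. CDK12 with OHT in shNT lost its call without any 1 shNT library or replicate 3 of shNT with OHT (log2 0.33 to 0.49), and without OHT its difference turned to 0.015 with upper-quartile normalization.

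Signs turned only for values that did not pass the test. With OHT in shNT, TOMM20 was at -0.0047 with the replicate number as a block, -0.015 thinned, -0.039 with the length trend removed and -0.00066 in 1 fit of all libraries, and from -0.11 to 0.19 without 1 library. TIMM17B was at -0.13 and -0.20 with the length, or length and GC, trends removed, and GFER at -0.033 and -0.13. TFAM was at -0.017 with the length trend removed. PMPCB was at 0.00016 with upper-quartile normalization and at 0.034 and 0.18 with these trends removed. POLRMT was at 0.014 with DESeq2, 0.034 with upper-quartile normalization and 0.015 in 1 fit. Without 1 library SAMM50 ranged from -0.30 to 0.13, TIMM17B from -0.0079 to 0.24, PMPCB from -0.16 to 0.12, TFAM from -0.14 to 0.30, POLRMT from -0.16 to 0.17, and MYC from -0.17 to 0.035 (with OHT, shCDK12 against shNT, from -0.043 to 0.16).

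The labels do not say whether the replicate numbers pair the libraries, and this was not tested. Same-numbered libraries of different groups had correlations of their deviations from -0.094 to 0.298 (median 0.025), over 0.1 in 2 of 18 pairs. Differently numbered ones had -0.333 to 0.101 (median -0.024), over 0.1 in 1 of 36. Of 36 sets of a library and another group, 19 matched best with the same number. Both same-numbered pairs over 0.1 joined shNT with OHT and the libraries labelled shCDK12, at 0.268 for replicate 1 and 0.298 for replicate 2. With the number as a block, the import genes called were 6, 19, 20, 16 and 17 with OHT in shNT, with OHT in the libraries labelled shCDK12, between the hairpins without and with OHT, and in the interaction (7, 17, 20, 16 and 16 without it). TIMM21 with OHT in shNT and TOMM7 between the hairpins with OHT were not called with the block. Of 134 gene results 83 kept direction and call in all alternatives run, and 10 turned in sign in at least 1. The 134 include results that were not called, so the 83 are not a rate for the calls alone.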
